A study of Mus musculus with 15 samples.

Results

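The Jumonji C (JmjC) histone demethylases are enzymes that take methyl groups off lysines of histones. Messenger RNA levels of 10 of their genes were followed here in mouse melanocytes: Kdm2a, Kdm2b, Kdm3a, Kdm3b, Kdm4a, Kdm4b, Kdm4c, Kdm5a, Kdm5b and Kdm6b. A gene was measured through probe sets (groups of probes read as 1 value) that the platform annotation gives to that gene symbol alone, taking the probe set with the highest mean where a gene had several. This gave 9 of the 10 genes, out of 22180 genes measured in the same way. Kdm2b has no value here, because its probe set is annotated to Gm2479 as well. Kdm6b had a second probe set, given below with its values.

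The study measured RNA from cultures of melan-Ink4a-Arf-1, an immortal melanocyte (pigment cell) line from mice with a mutated Cdkn2a tumour suppressor locus (Cdkn2a tm1RDp/tm1RDp), on 15 Affymetrix arrays in 5 groups of 3. All groups were grown in 10% serum with 200 nM of the phorbol ester TPA and 200 pM cholera toxin at 37 °C. Normoxic cells had about 21% oxygen and 10% CO2. The 4 hypoxic groups had 1% oxygen, 5% CO2 and 94% N2 for 24 h, so that oxygen and CO2 cannot be told apart. They are labelled control (called the hypoxia control here), negative control, HIF1A_Si1 and HIF1A_Si6 (called Si1 and Si6). Si1 and Si6 were transfected with different small interfering RNAs (siRNAs) against Hif1a 24 h before hypoxia. The labels do not say what the control or the negative control received, and all arrays come from 1 cell line. The series describes its replicates as biological triplicates.

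JmjC demethylases use molecular oxygen, iron and 2-oxoglutarate to hydroxylate a methyl group on lysine, which then leaves as formaldehyde. Their activity therefore draws on oxygen directly, and several of their genes are known targets of hypoxia-inducible factor 1 (HIF-1), the transcription factor whose oxygen-regulated subunit is encoded by Hif1a. The subfamilies differ in the lysine they act on. Lysines are named by histone and position, so that H3K9 is lysine 9 of histone H3. KDM2 enzymes act on H3K36, KDM3 enzymes on H3K9, KDM4 enzymes on H3K9 and H3K36, KDM5 enzymes on H3K4 and KDM6 enzymes on H3K27. Close relatives within a subfamily, such as Kdm3a and Kdm3b, are called paralogs. The comparisons address which of these genes respond to hypoxia, which responses are lost with less Hif1a, and whether paralogs respond alike.

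The sequences upstream of the responding genes are shown because HIF binds the short motif A or G followed by CGTG. Of the 6 genes that were higher in hypoxia and lower with each siRNA (values below), Kdm3a and Kdm5b have entries in the RefSeq promoter table used here (GRCm38.p6), and Kdm2a, Kdm4b, Kdm5a and Kdm6b do not. The share of all genes that met the same joint rule was not counted. In all, 5 of the 10 listed genes were matched by symbol. Each line holds the 250 bases before an annotated start, 5′ to 3′ on the strand of the gene, with every ACGTG or GCGTG on either strand in capitals (the reverse strand reads CACGT or CACGC). The Kdm3a window is chr6:71632918-71633167 on the minus strand, and the Kdm5b window is chr1:134559928-134560177 on the plus strand. The Kdm4c window, chr4:74251629-74251878 on the plus strand, lies before the second of its 2 annotated starts. It was added after its values were seen, as a paralog that did not pass the hypoxia test.
Kdm3a: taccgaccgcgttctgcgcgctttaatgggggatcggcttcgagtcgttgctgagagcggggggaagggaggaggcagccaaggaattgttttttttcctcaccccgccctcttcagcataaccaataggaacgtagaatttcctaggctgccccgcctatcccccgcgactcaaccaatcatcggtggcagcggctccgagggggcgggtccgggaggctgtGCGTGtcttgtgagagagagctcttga
Kdm5b: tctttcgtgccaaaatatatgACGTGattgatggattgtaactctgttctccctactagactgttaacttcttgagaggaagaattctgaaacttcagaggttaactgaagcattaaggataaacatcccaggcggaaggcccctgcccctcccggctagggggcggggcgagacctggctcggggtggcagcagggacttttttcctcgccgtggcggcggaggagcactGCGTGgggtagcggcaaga
Kdm4c: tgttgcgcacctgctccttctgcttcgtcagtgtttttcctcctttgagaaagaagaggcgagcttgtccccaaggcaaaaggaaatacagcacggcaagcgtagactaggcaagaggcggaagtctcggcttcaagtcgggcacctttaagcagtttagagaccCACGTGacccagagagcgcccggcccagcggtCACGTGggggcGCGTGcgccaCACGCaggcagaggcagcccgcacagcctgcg

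The Kdm3a window held 1 GCGTG, 27 to 23 bases before the start, and no ACGTG. The windows of the other 2 annotated Kdm3a starts held neither motif. The Kdm5b window held 1 ACGTG, 229 to 225 bases before the start, and 1 GCGTG, 19 to 15 bases before it. In the Kdm4c window ACGTG was counted 4 times, since each of its 2 palindromic CACGTG copies reads the same on both strands, and GCGTG 2 times. The window of the first Kdm4c start and the window of Kdm4a held neither motif. Of the 32851 windows of this length in the table, 16.6% held ACGTG, 28.2% held GCGTG and 38.6% held either, so such letters are common in windows of this size. A match describes these letters and is not evidence of binding.

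The arrays carried the labelled cell type and the labelled knockdown. Array medians lay between 6.52 and 6.61 on the log2 scale, and the Pearson correlation across probe sets was 0.9931 to 0.9957 within groups and 0.9782 to 0.9931 between groups. All 9 melanocyte markers lay above the median gene (6.9), from Kit at 8.46 to Tyrp1 at 13.06. Of the markers of other cell types, 2 of 6 for fibroblasts (highest Col1a1, 8.56), 1 of 4 for leukocytes (Cd68, 8.56), 0 of the 3 measured for keratinocytes and 0 of 4 for endothelium did so. Hif1a was 10.36, 10.3 and 10.35 in normoxia, 10.63, 10.54 and 10.59 in the hypoxia control and 10.68, 10.66 and 10.56 in the negative control. It was 8.61, 8.75 and 8.59 with Si1 and 8.9, 8.91 and 8.98 with Si6, below every other array. Against the negative control, the log2 change of Hif1a was -1.98 ± 0.06 (SE, 3 arrays a group) with Si1 and -1.7 ± 0.06 with Si6, or 25.3% and 30.7% of the control level. Its adjusted p, from limma, a linear model with a p corrected over all genes, was 1.7e-12 and 1.8e-11.

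In hypoxia, 6 of the 9 genes rose and 1 fell in the hypoxia control against normoxia. Kdm3a and Kdm4b rose most, to 2.18 and 2.28 times their normoxic level, followed by Kdm5b, Kdm6b, Kdm2a and Kdm5a. Kdm3b fell to 85.9%, and Kdm4a and Kdm4c did not pass the test. Of all 22180 genes, 9.87% rose and 11.2% fell by the same rule (limma, Benjamini-Hochberg adjusted p under 0.05). The median change was 0.48 over the 9 genes and -0.002 over all genes. In the negative control against the same normoxia arrays, the same 6 genes rose, and Kdm3b and Kdm4a fell. Of all genes 14.6% rose and 15.7% fell in that comparison, 3230 and 3493 genes, a split that moved to 2483 and 4231 after each array was centred on its median. The medians were 0.37 and -0.004. Melanocyte markers moved in these comparisons too, with 5 of 9 lower in the hypoxia control and 8 of 9 in the negative control (median changes -0.24 and -0.98), and none higher. Their mean level was 11.91 to 11.96 on normoxia arrays, 11.65 to 11.69 on hypoxia control arrays and 11.1 to 11.15 on negative control arrays. Their part in the hypoxia and siRNA results was not tested.

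With the siRNAs, 8 of the 9 genes fell with Si1 and 8 with Si6 against the negative control, and none rose. Kdm3a, Kdm4b and Kdm5b fell most with each. The exceptions were Kdm4a with Si1 and Kdm4c with Si6. Of all genes, 20.2% rose and 14.8% fell with Si1, and 17% rose and 11.9% fell with Si6. The median change of the 9 genes was -0.57 with Si1 and -0.52 with Si6, against -0.012 and -0.013 over all genes. Of the 9 melanocyte markers, 5 were lower and none higher with Si1, while 5 were higher and none lower with Si6 (median changes -0.13 and 0.24). The 2 siRNA comparisons share the negative control arrays. In bulk RNA, fewer cells with a transcript and less of it in each cell cannot be told apart.

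**Figure D1:**
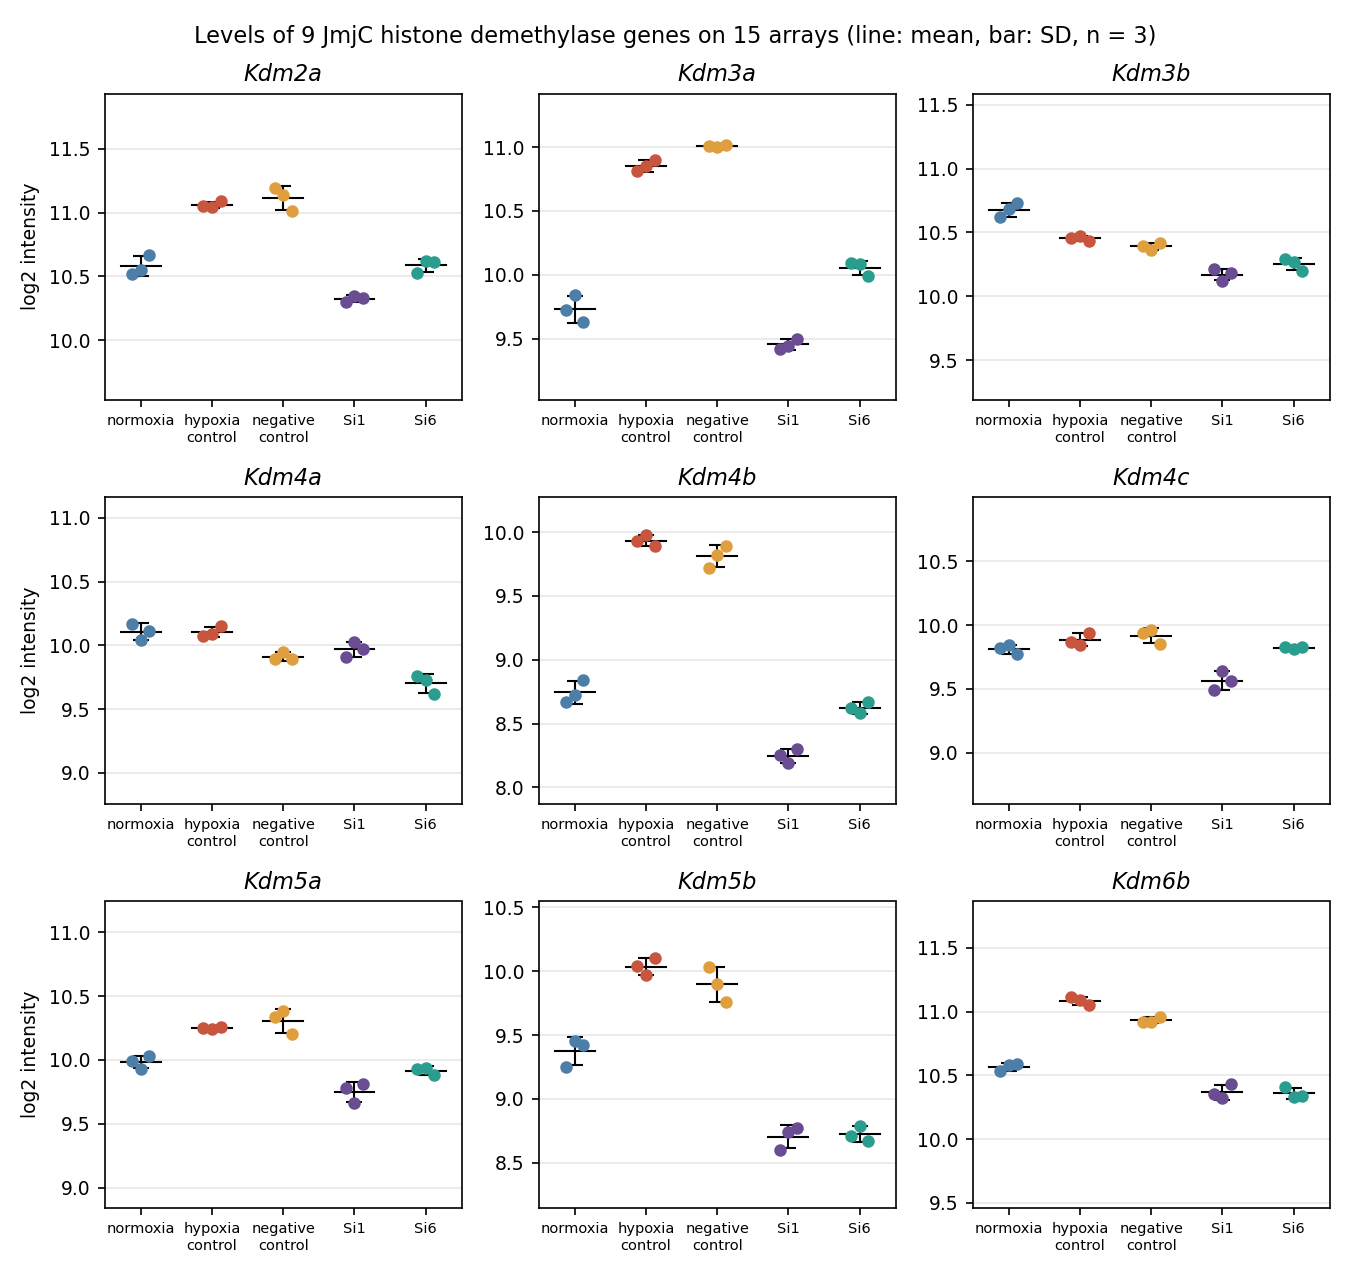
Level of each of the 9 genes on every array, as log2 intensity, by group. Each point is 1 array, the line is the mean of 3 arrays and the bar its SD, and every panel covers the same height in log2 units. Kdm3a, Kdm4b and Kdm5b show the widest separation of groups, with both hypoxic controls on top.

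**Figure D2:**
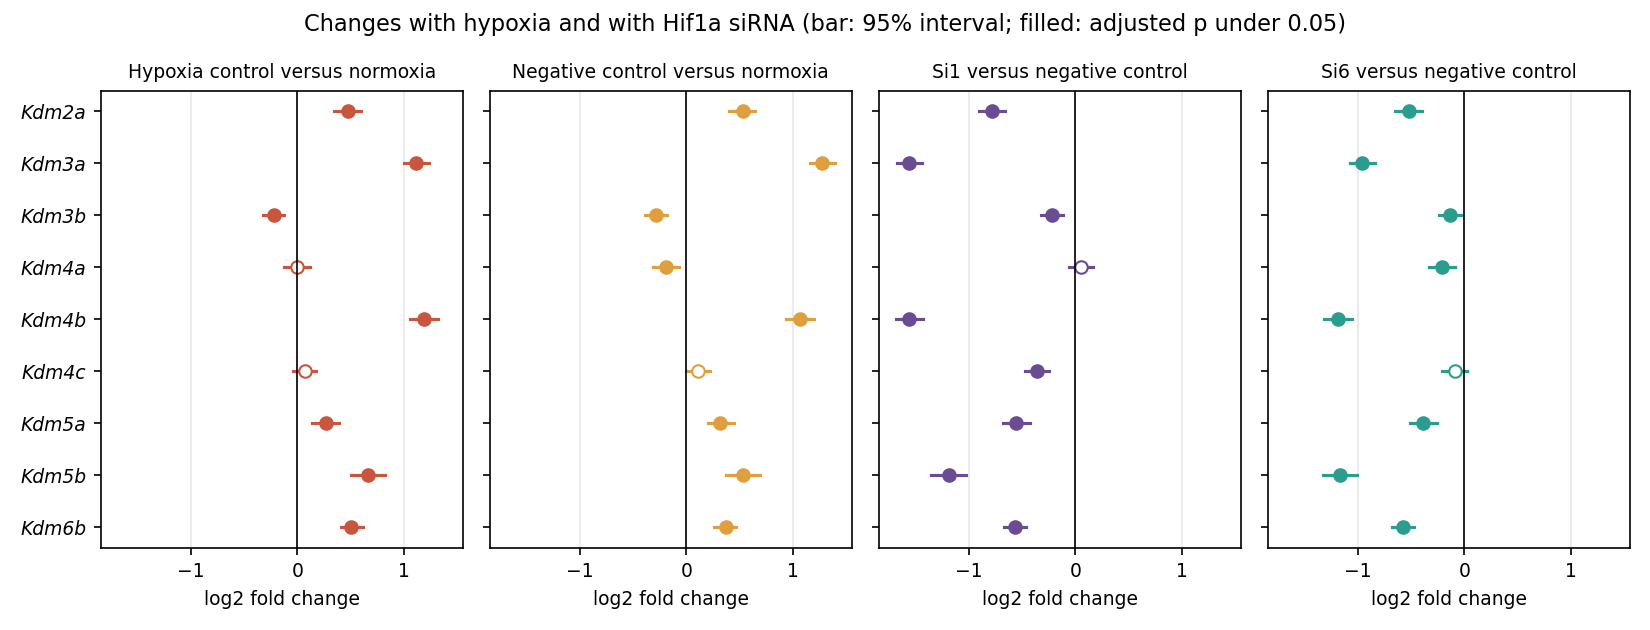
Log2 fold change of each gene in 4 comparisons, with its 95% interval from limma; filled points passed the adjusted p threshold of 0.05. Points for Kdm2a, Kdm3a, Kdm4b, Kdm5a, Kdm5b and Kdm6b lie to the right in both hypoxia panels and to the left in both siRNA panels.

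KDM2 enzymes are drawn to CpG islands, stretches rich in CG pairs, through a zinc finger. Kdm2a read 10.52, 10.55 and 10.67 in normoxia, 11.05, 11.04 and 11.09 in the hypoxia control and 11.19, 11.14 and 11.01 in the negative control. With siRNA it read 10.3, 10.35 and 10.33 (Si1) and 10.53, 10.62 and 10.61 (Si6). Both hypoxic controls lay above all other arrays, Si6 arrays overlapped normoxia, and Si1 arrays lay lowest. Kdm2a rose by 0.48 ± 0.06 in the hypoxia control (adjusted p = 2.1e-05) and by 0.53 ± 0.06 in the negative control (3.3e-06). It was at 58.1% of the negative control with Si1 (log2 change -0.78 ± 0.06, 3.3e-08) and at 69.6% with Si6 (-0.52 ± 0.06, 4.6e-06). Its paralog Kdm2b could not be set beside it.

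KDM3 enzymes remove mono- and dimethyl marks of H3K9, which are linked to silent genes. Kdm3a, a well-known hypoxia-inducible gene, read 9.72, 9.84 and 9.63 in normoxia, 10.81, 10.85 and 10.9 in the hypoxia control and 11.01, 11 and 11.02 in the negative control. It read 9.42, 9.44 and 9.5 with Si1 and 10.09, 10.08 and 9.99 with Si6. No 2 of the 5 groups overlapped: the hypoxic controls were highest, and Si6, normoxia and Si1 followed in that order. The rise was 1.12 ± 0.06 in the hypoxia control (adjusted p = 1.8e-09) and 1.28 ± 0.06 in the negative control (2.0e-10). Kdm3a fell with Si1 to 34.0% of the negative control (log2 change -1.56 ± 0.06, 1.9e-11) and with Si6 to 51.4% (-0.96 ± 0.06, 6.8e-09).

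Kdm3b, the paralog of Kdm3a, went the other way in hypoxia. Its arrays read 10.62, 10.68 and 10.73 in normoxia, 10.46, 10.47 and 10.43 in the hypoxia control and 10.39, 10.36 and 10.42 in the negative control. They read 10.21, 10.12 and 10.18 with Si1 and 10.29, 10.27 and 10.2 with Si6. Normoxia was the highest of the groups and overlapped none, and the Si1 and Si6 arrays overlapped each other. Kdm3b fell in the hypoxia control (-0.22 ± 0.05, adjusted p = 0.004) and in the negative control (-0.28 ± 0.05, 2.9e-04). A further fall followed with Si1 (-0.22 ± 0.05, 0.002) and with Si6 (-0.14 ± 0.05, 0.044). The Si6 call was lost with median centring (adjusted p = 0.274), with only the compared groups in the fit (0.106) and when any negative control or Si6 array was left out. It was also lost without any 1 hypoxia control array, Si1 array a or normoxia array b (0.0504 to 0.0586).

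The KDM3 paralogs differed in both responses. On the 6 hypoxic control arrays against the 3 normoxia arrays, Kdm3a was up by 1.2 and Kdm3b down (-0.25), a difference of 1.45 between paralogs. Exact two-sided permutation of the arrays gave p = 0.0238, the smallest that 6 against 3 arrays allow, and 0.0298 after adjustment over the 5 pairs tested. On the 6 siRNA arrays against the 3 negative control arrays Kdm3a changed by -1.26 and Kdm3b by -0.18, a difference of -1.08 (exact p = 0.0238, adjusted 0.0298). With limma on the per-array differences, a test added after the data were seen, the 95% intervals were 1.34 to 1.57 and -1.2 to -0.96. The second interval is for the mean of both siRNAs, which differed from each other here. By limma Kdm3a minus Kdm3b was -1.34 with Si1 and -0.82 with Si6 (Si1 minus Si6 -0.52, adjusted p = 1.3e-05).

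KDM4 enzymes remove trimethyl marks of H3K9 and H3K36, and their 3 members here behaved differently. Kdm4b read 8.67, 8.72 and 8.84 in normoxia, 9.93, 9.98 and 9.89 in the hypoxia control and 9.72, 9.82 and 9.89 in the negative control. It read 8.25, 8.19 and 8.3 with Si1 and 8.62, 8.58 and 8.67 with Si6. The lowest hypoxic control array (9.72) lay well above the highest of the other arrays (8.84, in normoxia). Si6 arrays overlapped normoxia at 8.67, and Si1 arrays were lowest. Kdm4b rose by 1.19 ± 0.06 in the hypoxia control (adjusted p = 1.8e-09) and by 1.07 ± 0.06 in the negative control (2.5e-09). It fell to 33.8% of the negative control with Si1 (log2 change -1.56 ± 0.06, 3.4e-11) and to 43.9% with Si6 (-1.19 ± 0.06, 1.3e-09). Its group means spanned 1.69 on the log2 scale, or 3.22-fold, the widest span of the 9 genes.

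Kdm4a, which acts on the same lysines, moved less than Kdm4b, with group means spanning 0.4 on the log2 scale. Its arrays read 10.17, 10.04 and 10.11 in normoxia, 10.07, 10.09 and 10.15 in the hypoxia control and 9.89, 9.95 and 9.89 in the negative control. They read 9.91, 10.03 and 9.97 with Si1 and 9.76, 9.73 and 9.62 with Si6. Normoxia and the hypoxia control overlapped, the negative control overlapped Si1, and Si6 was lowest. The hypoxia control differed from normoxia by less than the standard error of 0.06 (95% interval -0.12 to 0.12). The negative control was lower than normoxia (-0.19 ± 0.06, adjusted p = 0.014) and lower than the hypoxia control (-0.19 ± 0.06, 0.03). The first call was lost when negative control array a (0.0506) or normoxia array a (0.0637) was left out. The second was lost when negative control array a or c or any hypoxia control array was left out. With siRNA, Kdm4a was at 0.05 ± 0.06 for Si1 (0.514) and fell with Si6 (-0.21 ± 0.06, 0.009). The Si6 call was lost with median centring (0.0504) and without Si6 array c (0.0512). Against normoxia, Kdm4a was lower with Si6 (-0.4 ± 0.06, 3.5e-05), a comparison added after the data were seen.

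Kdm4c, the third of the KDM4 genes, read 9.82, 9.84 and 9.77 in normoxia, 9.87, 9.84 and 9.94 in the hypoxia control and 9.94, 9.96 and 9.85 in the negative control. It read 9.49, 9.64 and 9.56 with Si1 and 9.83, 9.81 and 9.83 with Si6. Si1 alone stood apart, below all other arrays, and all other arrays lay between 9.77 and 9.96. The hypoxia change was 0.07 ± 0.05 (95% interval -0.04 to 0.18, adjusted p = 0.407) in the hypoxia control and 0.11 ± 0.05 (0.146) in the negative control. Kdm4c fell with Si1 (-0.36 ± 0.05, 4.7e-05) and was at -0.09 ± 0.05 with Si6 (95% interval -0.21 to 0.02, 0.217).

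Between the KDM4 paralogs, Kdm4b stood apart from both others. In hypoxia the Kdm4b change (1.13) exceeded that of Kdm4c (0.09) by 1.04 and that of Kdm4a (-0.1) by 1.23, written as Kdm4a minus Kdm4b -1.23, each with exact p = 0.0238 and adjusted p = 0.0298. With the siRNAs the Kdm4b change (-1.38) lay below that of Kdm4c (-0.23) by 1.15 (-1.15) and below that of Kdm4a (-0.08), with Kdm4a minus Kdm4b at 1.3, again with exact p = 0.0238 and adjusted p = 0.0298. Kdm4a and Kdm4c did not pass this test in hypoxia (-0.19, exact p = 0.0714) or with the siRNAs (0.15, exact p = 0.4762). This does not show that they respond alike: the limma intervals were -0.29 to -0.09 (adjusted p = 0.006) and 0.05 to 0.25 (0.022). The first interval takes both hypoxic controls together. In the hypoxia control alone, Kdm4a minus Kdm4c was -0.08 by limma (95% interval -0.19 to 0.04, adjusted p = 0.404). In the negative control it was -0.3 (4.5e-04). The siRNAs differed from each other for that pair by 0.53 (limma, Si1 minus Si6, adjusted p = 2.1e-06). Kdm4a minus Kdm4c was at 0.41 for Si1 (1.6e-05) and -0.11 for Si6 (95% interval -0.23 to 0, 0.142). For Kdm4a minus Kdm4b the siRNAs differed too, by 0.64 (adjusted p = 1.4e-05), at 1.62 for Si1 and 0.98 for Si6. For Kdm4b minus Kdm4c their difference did not pass (-0.11, 0.378).

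**Figure D3:**
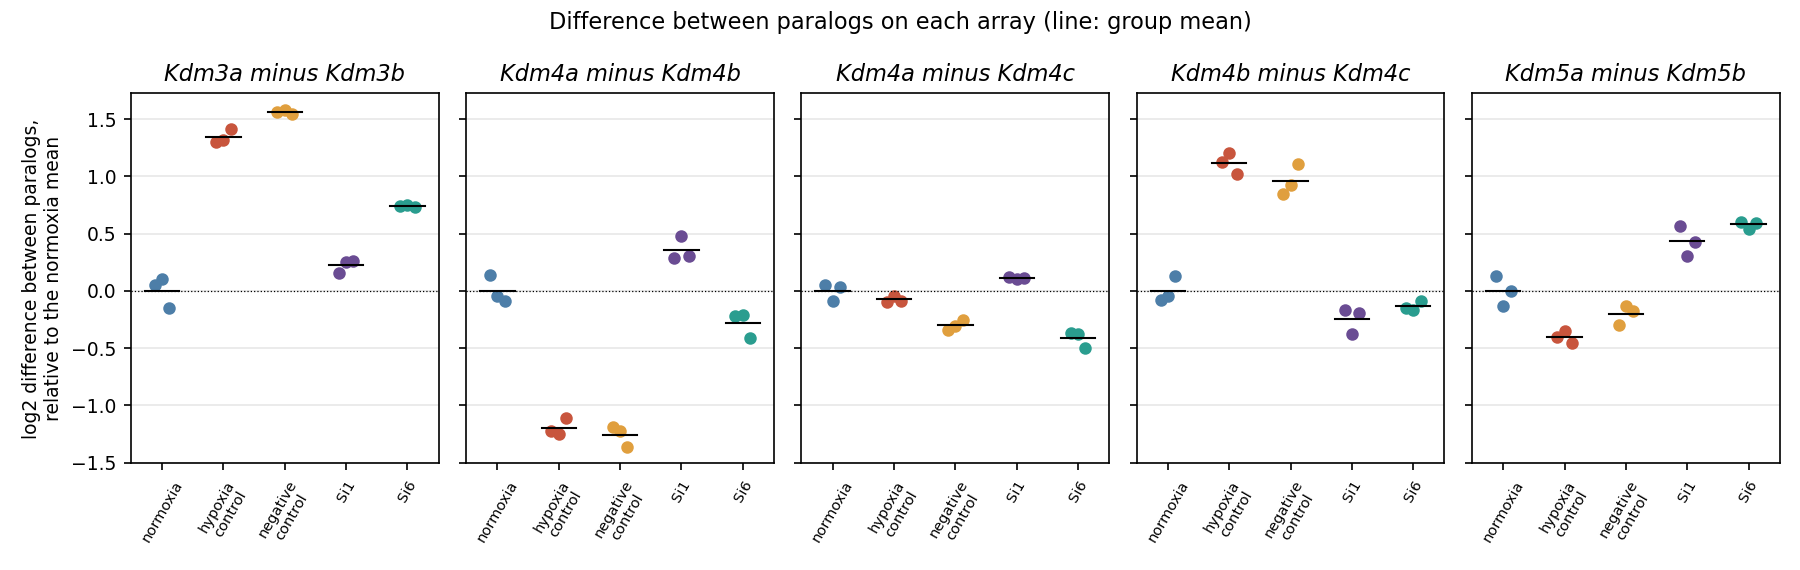
Difference in log2 level between 2 paralogs on each array, set to 0 at the normoxia mean, with the mean of each group as a line. In hypoxia Kdm3a minus Kdm3b and Kdm4b minus Kdm4c lie up and Kdm4a minus Kdm4b lies down, while Kdm4a minus Kdm4c has Si1 above and Si6 below the negative control.

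KDM5 enzymes remove di- and trimethyl marks of H3K4, which mark active promoters. Kdm5b read 9.25, 9.45 and 9.42 in normoxia, 10.04, 9.97 and 10.1 in the hypoxia control and 10.03, 9.9 and 9.76 in the negative control. It read 8.6, 8.74 and 8.77 with Si1 and 8.71, 8.79 and 8.67 with Si6. The levels fell into 3 tiers without overlap, the hypoxic controls above, normoxia between and both siRNAs below. Kdm5b rose by 0.67 ± 0.08 in the hypoxia control (adjusted p = 1.1e-05) and by 0.53 ± 0.08 in the negative control (5.2e-05). It fell with Si1 to 43.7% of the negative control (log2 change -1.19 ± 0.08, 6.5e-09) and with Si6 to 44.4% (-1.17 ± 0.08, 1.8e-08).

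Kdm5a moved in the same directions by less. It read 9.99, 9.93 and 10.03 in normoxia, 10.25, 10.24 and 10.26 in the hypoxia control and 10.34, 10.38 and 10.2 in the negative control. With Si1 it read 9.78, 9.66 and 9.81 and with Si6 9.93, 9.94 and 9.88. Both hypoxic controls lay above all other arrays, and Si6 overlapped normoxia. Kdm5a rose by 0.27 ± 0.06 (adjusted p = 0.004) and 0.32 ± 0.06 (4.9e-04) in the hypoxia control and the negative control, and fell with Si1 (-0.56 ± 0.06, 1.6e-06) and Si6 (-0.39 ± 0.06, 1.0e-04).

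The KDM5 paralogs differed in size of response. In hypoxia the change was 0.29 for Kdm5a and 0.6 for Kdm5b, a difference of -0.3 (exact p = 0.0238, adjusted 0.0298). The groups of that test barely parted, with normoxia array b at -0.134 and negative control array b at -0.136. By limma the difference was called in the hypoxia control (-0.4, adjusted p = 0.001) and not in the negative control (-0.2, 0.056). With the siRNAs the change was -0.47 for Kdm5a and -1.18 for Kdm5b, a difference of 0.71 (exact p = 0.0238, adjusted 0.0298, limma interval 0.57 to 0.85).

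Kdm6b (also called Jmjd3) removes the trimethyl mark of H3K27 that Polycomb complexes place. It read 10.53, 10.58 and 10.59 in normoxia, 11.11, 11.09 and 11.05 in the hypoxia control and 10.92, 10.92 and 10.96 in the negative control. It read 10.35, 10.32 and 10.43 with Si1 and 10.41, 10.33 and 10.34 with Si6. The hypoxia control was highest, then the negative control, then normoxia, with no overlap among these, and both siRNAs lay below and overlapped each other. Kdm6b rose by 0.51 ± 0.05 in the hypoxia control (adjusted p = 1.5e-06) and by 0.37 ± 0.05 in the negative control (2.1e-05), and it fell with Si1 (-0.57 ± 0.05, 1.4e-07) and with Si6 (-0.58 ± 0.05, 2.6e-07). Its second probe set was dim, with a mean of 5.89 where the median gene lay at 6.9, and it was not tested alone. Its differences were 0.07 in the hypoxia control, -0.05 with Si1 and -0.1 with Si6. Its normoxia arrays alone ran from 5.72 to 6.05. The mean of both probe sets gave 0.29 in the hypoxia control (3.9e-04), -0.31 with Si1 (1.1e-04) and -0.34 with Si6 (6.3e-05). That mean contains the probe set used above, so these calls cannot show whether the second probe set responded.

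The hypoxic controls were close to each other for most of these genes. In the negative control against the hypoxia control, 1 of the 9 genes passed the test, Kdm4a, and 7.8% of all genes were higher and 7.51% lower. Kdm6b was at -0.15 ± 0.05 (adjusted p = 0.052), Kdm3a at 0.16 ± 0.06 (0.085) and the remaining 6 genes between -0.14 and 0.06. Melanocyte markers differed between these groups, with 8 of 9 lower in the negative control (levels above), and their part in these results was not tested.

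Hypoxic cells with siRNA were also set against normoxia. By the mean of both siRNAs, 6 of the 9 genes were lower than in normoxia and none was higher, beside 16.7% lower and 20.8% higher among all genes. Kdm5b was lowest relative to normoxia (-0.65 ± 0.07, adjusted p = 7.7e-07), then Kdm3b (-0.46 ± 0.04, 2.8e-07), Kdm4b (-0.31 ± 0.05, 1.7e-04) and Kdm4a (-0.27 ± 0.05, 2.8e-04). Kdm6b (-0.2 ± 0.04, 9.0e-04) and Kdm5a (-0.15 ± 0.05, 0.032) also passed, though the Kdm5a call was lost when Si1 array b, Si6 array c or normoxia array a or c was left out. Kdm2a (-0.13, 0.064), Kdm4c (-0.12, 0.054) and Kdm3a (0.02, 0.79) did not pass.

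Each siRNA was then set against normoxia on its own, a comparison added after the data were seen. With Si1, 8 of the 9 genes were lower than in normoxia, beside 17.4% lower and 21.7% higher among all genes. The exception was Kdm4a (-0.14, adjusted p = 0.063). With Si6, 4 were lower and 1 higher, beside 13.1% lower and 17% higher among all genes. Kdm5b was about as far below normoxia with Si1 (-0.67 ± 0.08) as with Si6 (-0.64 ± 0.08). Kdm3a lay on opposite sides, below normoxia with Si1 (-0.28 ± 0.06, 8.6e-04) and above it with Si6 (0.32 ± 0.06, 3.8e-04). Kdm4b was below with Si1 (-0.5 ± 0.06, 5.3e-06) and did not pass with Si6 (-0.12 ± 0.06, 0.157).

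**Figure D4:**
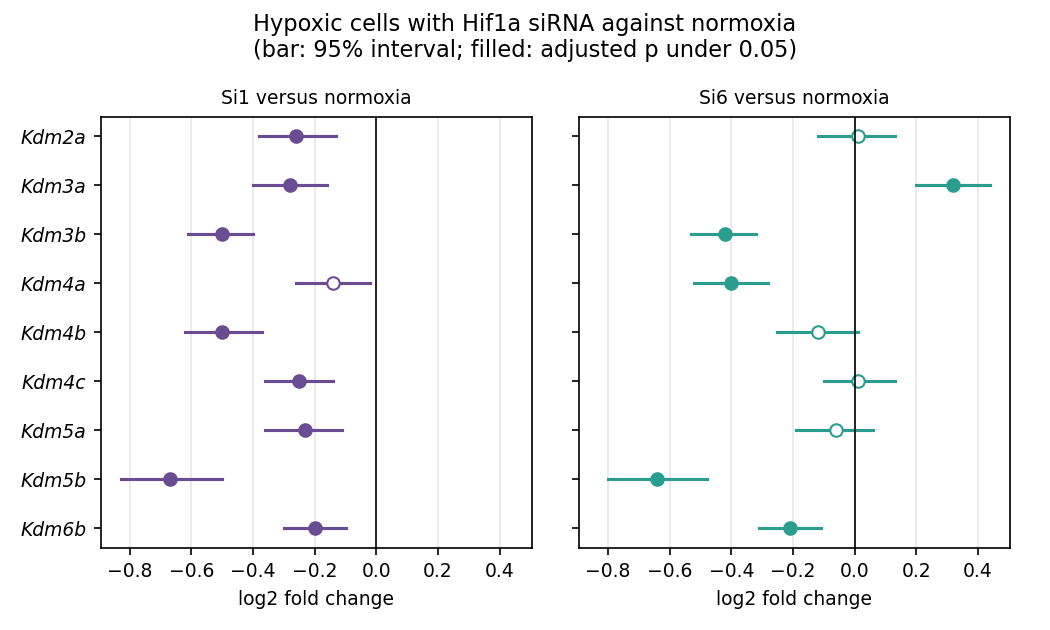
Log2 fold change of each gene in hypoxic cells with Si1 or Si6 against normoxic cells, with the 95% interval from limma; filled points passed the adjusted p threshold of 0.05. With Si1 every point lies below 0, and with Si6 Kdm3a lies above 0 while Kdm3b, Kdm4a, Kdm5b and Kdm6b lie below.

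Tested directly against each other, Si1 and Si6 differed for 6 of the 9 genes. With Si1, 5 were lower than with Si6 and 1 was higher, beside 13.4% lower and 14.5% higher among all genes. The largest difference was that of Kdm3a (-0.6 ± 0.06, adjusted p = 8.9e-07), then Kdm4b (-0.38 ± 0.06, 1.7e-04), Kdm2a (-0.26 ± 0.06, 0.003) and Kdm4c (-0.26 ± 0.05, 0.001). Kdm4a was higher with Si1 (0.26 ± 0.06, 0.002). Kdm5a was lower (-0.17 ± 0.06, 0.042), a call lost with only the compared groups in the fit (0.087) and when any Si6 array or Si1 array a or b was left out. The Kdm5a call was also lost without any 1 hypoxia control array, negative control array a or normoxia array a (adjusted p = 0.0505 to 0.0556). Kdm5b (-0.02, 95% interval -0.18 to 0.14), Kdm6b (0.01, -0.09 to 0.11) and Kdm3b (-0.08, -0.19 to 0.02) did not pass. Hif1a itself was lower with Si1 than with Si6 (-0.28, 0.001). All 9 melanocyte markers were lower with Si1 than with Si6 too, with their mean at 10.85 to 10.89 on Si1 arrays and 11.43 to 11.52 on Si6 arrays. The part of either in these differences was not tested.

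Other JmjC proteins were counted in the same comparisons. Of 21 listed, 17 were measured, of which 4 rose and 1 fell in the hypoxia control, and 2 rose and 4 fell in the negative control, each against normoxia. Against the negative control, 4 rose and 8 fell with Si1, and 1 rose and 6 fell with Si6. Their median changes were -0.04, 0.02, -0.05 and -0.05 in that order. The shares of all genes called are those given above for each comparison. Kdm7a, a demethylase of H3K9 and H3K27, rose in the hypoxia control (0.41 ± 0.07, adjusted p = 2.7e-04), did not pass in the negative control (0.12 ± 0.07, 0.213) and fell with Si1 (-0.44 ± 0.07, 6.6e-05) and Si6 (-0.5 ± 0.07, 2.6e-05). Jarid2, a JmjC protein without demethylase activity that works with Polycomb complexes, fell against normoxia in the hypoxia control (-0.24 ± 0.05, 0.003) and in the negative control (-0.62 ± 0.05, 1.3e-07), which differed from each other (-0.38, 7.1e-05). It fell again with Si1 (-0.95 ± 0.05, 8.5e-10) and Si6 (-0.67 ± 0.05, 8.0e-08). Jarid2 arrays read 10.84, 10.84 and 10.85 in normoxia, 10.59, 10.58 and 10.65 in the hypoxia control and 10.23, 10.23 and 10.21 in the negative control. The Y-linked genes Uty and Kdm5d fell with Si1 (-0.79 ± 0.08 and -0.5 ± 0.09) and Si6 (-0.38 ± 0.08 and -0.36 ± 0.09) and did not pass in hypoxia (0.12, adjusted p = 0.333, and 0.11, 0.465).

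The flavin-dependent demethylases use oxygen by another mechanism. Kdm1a (LSD1) rose in the hypoxia control (0.34 ± 0.06, adjusted p = 5.1e-04) and the negative control (0.28 ± 0.06, 0.001), and did not pass with Si1 (-0.03, 0.719) or Si6 (-0.11, 0.177). Kdm1b did not pass in the hypoxia control (-0.19 ± 0.07, 0.064), fell in the negative control (-0.25 ± 0.07, 0.009) and rose with Si1 (0.6 ± 0.07, 3.0e-06) and Si6 (0.51 ± 0.07, 2.7e-05).

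The DNA and RNA demethylases, which like the JmjC enzymes depend on 2-oxoglutarate, had 5 of 6 genes measured. Of these 3 rose and 0 fell in the hypoxia control (median 0.62), and 3 rose and 1 fell in the negative control (median 0.4). With Si1 4 fell, and with Si6 4 fell and 1 rose (medians -0.67 and -0.54). Among all genes 9.87% rose and 11.2% fell in the hypoxia control, and 14.6% and 15.7% in the negative control. These shares were 20.2% and 14.8% with Si1, and 17% and 11.9% with Si6. Tet1, which oxidises methylcytosine in DNA, rose by 1.55 ± 0.08 in the hypoxia control (adjusted p = 1.7e-09) and fell with Si1 (-1.66 ± 0.08, 2.5e-10) and Si6 (-1.58 ± 0.08, 9.3e-10). Its arrays read 7.71, 8.02 and 7.8 in normoxia, 9.44, 9.33 and 9.42 in the hypoxia control and 9.21, 9.38 and 9.17 in the negative control. With Si1 Tet1 read 7.55, 7.59 and 7.63 and with Si6 7.74, 7.68 and 7.6, overlapping the normoxia arrays or below them. Tet2 rose by 0.62 ± 0.07 (1.2e-05) and the RNA demethylase Alkbh5 by 0.75 ± 0.07 (1.3e-06), and each fell with Si1 (-1.41 and -0.67) and Si6 (-0.57 and -0.54).

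The methyltransferases that place the same marks were counted as well, in short lists. Among all genes 9.87% rose and 11.2% fell in the hypoxia control, and 14.6% and 15.7% in the negative control. In the hypoxia control, 0 rose and 2 fell of 6 for H3K4, 1 rose and 1 fell of the 4 measured for H3K9, 1 rose and 0 fell of 4 for H3K27, and 0 of the 4 measured for H3K36 passed the limma test. In the negative control against normoxia, 0 rose and 3 fell for H3K4, 0 rose and 2 fell for H3K9, 3 rose and 1 fell for H3K27, and 0 rose and 1 fell for H3K36. Setdb2, an H3K9 methyltransferase, fell in the hypoxia control (-0.58 ± 0.07, adjusted p = 2.9e-05) and rose with Si1 (0.7 ± 0.07, 1.4e-06) and Si6 (0.59 ± 0.07, 1.3e-05). Setd1b, of the H3K4 group, fell in the hypoxia control (-0.33 ± 0.06, 5.6e-04). With Si1, 1 rose and 1 fell for H3K4, and 1 rose and 0 fell for H3K9. For H3K27 3 rose and 1 fell with Si1, and for H3K36 1 rose and 1 fell. With Si6, 3 rose and 1 fell for H3K4, and 1 rose and 1 fell for H3K9. For H3K27 2 rose and 0 fell with Si6, and for H3K36 2 rose and 0 fell. Setd1b fell with Si1 (-0.31, adjusted p = 4.1e-04) and rose with Si6 (0.16, 0.047). Ezh1, of the H3K27 group, did likewise (-0.61, 2.2e-06, and 0.2, 0.038). Among all genes 20.2% rose and 14.8% fell with Si1, and 17% and 11.9% with Si6. The catalytic subunit Ezh2, which opposes Kdm6b at H3K27, was at 0.01 ± 0.05 in the hypoxia control (0.92). It rose in the negative control (0.41 ± 0.05, 4.2e-06) and further with Si1 (0.36 ± 0.05, 1.3e-05) and Si6 (0.25 ± 0.05, 5.0e-04).

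The oxygen sensors of the HIF pathway are dioxygenases too. Of 8 HIF subunits and prolyl hydroxylases, 3 rose and 1 fell in the hypoxia control and likewise in the negative control. With Si1 5 were lower and 1 higher, and with Si6 4 were lower and 2 higher. Hif1a, the target of the siRNAs, is among the lower genes in both of these counts, and so is Epas1, another HIF subunit gene. Epas1 fell with Si1 (-0.76 ± 0.08, adjusted p = 2.1e-06) and Si6 (-0.34 ± 0.08, 0.005), and was lower with Si1 than with Si6 (-0.43, 8.8e-04). Against normoxia, Epas1 did not pass in the hypoxia control (-0.16, 0.201) or the negative control (0.04, 0.786). Its part in the siRNA results was not tested. Among all genes 9.87% rose and 11.2% fell in the hypoxia control, and 14.6% and 15.7% in the negative control. These shares were 20.2% and 14.8% with Si1, and 17% and 11.9% with Si6. Egln1, which marks HIF for degradation, rose by 1.77 ± 0.06 in the hypoxia control (adjusted p = 1.1e-11) and Egln3 by 2.39 ± 0.15 (2.9e-08). Each fell with Si1 (-1.77 and -2.76) and Si6 (-1.59 and -2.72).

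The genes whose pattern over the 15 arrays was most like that of the 3 demethylases with a span of at least 1 were found by the root mean square difference of centred log2 levels, as a description. For Kdm3a these were Clvs1 (0.153), Slitrk2 (0.153) and Grhpr (0.167). For Kdm4b they were Mxi1 (0.11), Pgbd1 (0.145) and Ccng2 (0.148), and for Kdm5b Postn (0.11), H2aw (0.139) and Mef2c (0.151).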

How the data were processed

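RNA was biotin-labelled and hybridised to one-colour Affymetrix arrays, per the labels' protocols. The authors deposited log2 intensities of 41345 probe sets. The submitters' processing notes list RMA and Partek but no version or settings, and no filter or genome build is given in the sources used here. RMA brings arrays to 1 distribution, so a shift of all genes together cannot be seen and changes of dim genes are compressed. Levels of different probe sets were not compared. The files hold no detection calls, and the number of arrays limits precision. In the platform annotation 23521 probe sets carry exactly 1 gene symbol.

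The main model, limma 3.58.1 in R 4.3.3 with eBayes, had a mean for each of the 5 groups. Its two-sided p-values were adjusted by Benjamini-Hochberg over 22180 genes, with a threshold of 0.05, and errors beside changes are standard errors. Paralog pairs were compared by exact permutation (SciPy 1.17.1) of per-array differences, adjusted over 5 pairs, since the planned Kdm2a and Kdm2b pair lacked a value. The 10 genes, 13 gene lists and tests were chosen with earlier results of these data known. Named genes were the 10, Hif1a, Kdm1a, Kdm1b and up to 4 of each other list with the largest changes. The model was tested on simulated data. Alternatives changed the normalization, a filter on the lowest 25% of genes, the handling of probe sets, the variance model, the samples used and the replicate block, and left out each array.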

Additional observations from a re-analysis of the deposited data

Results flagged for a closer look

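The responses to Si1 and Si6, measured against the same negative control arrays, differed by limma's test of the difference for 6 genes. Among all genes, 13.4% were lower and 14.5% higher with Si1 than with Si6. On the log2 scale, Si1 minus Si6 was -0.26 for Kdm2a, -0.6 for Kdm3a, -0.38 for Kdm4b, -0.26 for Kdm4c and -0.17 for Kdm5a. It was 0.26 for Kdm4a. Si1 and Si6 arrays did not overlap for any of these genes, a trait that was not counted over all genes. The Kdm5a call was lost in several refits, as given above. The hypoxic controls, measured against the same normoxia arrays, differed by that test for Kdm4a, where the negative control minus the hypoxia control was -0.19. That call was lost in several refits as well, and 7.8% of all genes were higher and 7.51% lower in that comparison.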

How the results depend on the processing

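Over the 9 genes and 7 comparisons, leaving out 1 array kept the call in 908 of the refits, lost it in 33 and gained it in 4. In many of these refits the array left out was not part of the comparison. The log2 change then could not move, and only the estimate of spread did. The other alternatives kept the call in 423, lost it in 7 and gained it in 11. Averaging probe sets, 1 of these alternatives, left the levels of every gene here but Kdm6b as they were. Kdm3a against normoxia turned from 0.02 for the mean of both siRNAs to -0.28 with Si1 alone. The number of genes called in the negative control against the hypoxia control was 1. It was 2 after quantile normalization, 2 without the lowest 25% of genes, 3 with trend and robust eBayes, 0 with the replicate block and 0 to 2 with 1 array left out. The replicate block also ended the calls of Kdm3b with Si6 (adjusted p = 0.0706) and Kdm5a between Si1 and Si6 (0.0628), and no other call of these genes. The letters may not mark a pairing: over 30 same-letter pairs of arrays the correlation of deviations from group means was -0.22 to 0.21, with 3 over 0.1. Over 60 different-letter pairs it was -0.22 to 0.23, with 11 over 0.1. Of 5 paralog pairs, 4 passed the exact test in hypoxia and 4 with the siRNAs. With the hypoxia control only, the negative control only, Si1 only or Si6 only it was 0, since 3 against 3 arrays cannot give p below 0.1. With 1 array left out it was 0 to 4 for each response. It was 0 whenever an array of the smaller group was left out, since the exact test then cannot reach the threshold whatever the values. Limma on the paralog differences, added after the data were seen, called 5 in each.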
